A study of Mus musculus with 15 samples.

Results

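The peaks described here are those of 4 stretches of the mouse genome, the HoxA, HoxB, HoxC and HoxD clusters, in ChIP-seq of subunits of Polycomb repressive complex 1 (PRC1). Members were chosen by position only: every deposited peak that overlapped the HoxA window (chromosome 6, 52.09 to 52.23 Mb of the mm9 build), the HoxB window (chromosome 11, 96.04 to 96.24 Mb), the HoxC window (chromosome 15, 102.73 to 102.89 Mb) or the HoxD window (chromosome 2, 74.48 to 74.61 Mb). This gave 271 of the 30692 peaks in the 5 lists: 62 in HoxA, 76 in HoxB, 65 in HoxC and 68 in HoxD. The series holds 15 samples, 6 ChIP-seq and 9 RNA-seq, and peak lists of 5 ChIP-seq samples were used. One was of Mel18 in embryonic stem cells (ESCs), and the others were of Mel18, Ring1b, RYBP and Cbx2 in cells called MES, early precursors of cardiac mesoderm. All 5 came from E14Tg2A, a mouse ESC line, with no knockdown or knockout labelled. The ESCs were undifferentiated and grown in 2i medium with LIF, and the MES were made from the line by a cardiac differentiation protocol with BMP4. Not analysed here were the IgG sample and the RNA-seq samples. Each list came from 1 sample, so no difference between lists had a replicate check and no test was made. Read depth was unknown, and the absence of a peak says only that none was listed, since read coverage was not analysed here.

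Hox genes encode homeodomain transcription factors that give cells their position along the head-to-tail axis. The genes of a cluster lie in the order in which they are used along that axis, from anterior genes with low paralogue numbers to posterior genes with high ones. In ESCs the clusters are silent and are textbook Polycomb targets, and they are opened in part during the formation of mesoderm. PRC1 holds target genes in a compact, repressed state. Mel18, also called Pcgf2, is a subunit that pairs with the ubiquitin ligase Ring1b in some PRC1 complexes. Cbx2 is the chromodomain subunit of canonical PRC1, which reads a histone methyl mark laid down by PRC2, and RYBP belongs to variant PRC1, which has no Cbx subunit. The 38 Hox genes listed for the clusters were all found in the RefSeq gene table, and only their order, by the low-coordinate end of each gene, was taken from it because that table uses another build. HoxA held Hoxa2 to Hoxa7, Hoxa9 to Hoxa11 and Hoxa13, with the anterior genes at the low end of the coordinates. In the other windows the posterior genes lay at the low end: Hoxb13, Hoxb9 to Hoxb5, then Hoxb3, Hoxb4, Hoxb2 and Hoxb1 in HoxB, Hoxc13 to Hoxc8 and then Hoxc6 to Hoxc4 in HoxC, and Hoxd13 to Hoxd8, then Hoxd3, Hoxd4 and Hoxd1 in HoxD. The longest distance between neighbouring listed genes lay between Hoxa11 and Hoxa13 in HoxA and between Hoxb13 and Hoxb9 in HoxB. In HoxC it lay between Hoxc12 and Hoxc11, and in HoxD between Hoxd4 and Hoxd1. No single gene was placed under a peak.

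CpG-rich promoters are the usual landing sites of PRC1, and 5 promoters are shown for what the DNA of the clusters looks like, each with its CpG dinucleotides in capitals. Hoxb4, Hoxc4 and Hoxd4 are counterparts in 3 clusters. Hoxa5 stands for HoxA, and Hoxa13, a regulator of the digits and the genital tubercle, had the most CpGs of those found. Each runs 5′ to 3′ from 250 bases before to 50 bases after a RefSeq gene start. Their coordinates are of another build than the peaks and cannot be set against them.
Hoxa5 (GRCm38.p6, chr6:52204538-52204837, minus strand): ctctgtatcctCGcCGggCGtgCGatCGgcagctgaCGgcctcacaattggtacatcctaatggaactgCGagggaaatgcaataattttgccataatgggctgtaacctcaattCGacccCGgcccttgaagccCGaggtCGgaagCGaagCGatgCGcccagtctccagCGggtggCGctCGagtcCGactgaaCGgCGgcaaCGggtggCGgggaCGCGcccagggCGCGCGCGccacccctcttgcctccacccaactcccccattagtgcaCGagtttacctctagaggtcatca
Hoxa13 (GRCm38.p6, chr6:52260831-52261130, minus strand): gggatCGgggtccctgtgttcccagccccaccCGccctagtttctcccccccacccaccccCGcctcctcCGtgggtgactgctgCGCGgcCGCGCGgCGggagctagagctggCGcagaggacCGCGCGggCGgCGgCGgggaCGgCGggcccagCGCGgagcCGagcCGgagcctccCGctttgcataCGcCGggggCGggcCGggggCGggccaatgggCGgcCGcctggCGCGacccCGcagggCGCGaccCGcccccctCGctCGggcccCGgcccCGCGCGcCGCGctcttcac
Hoxb4 (GRCm38.p6, chr11:96318017-96318316, plus strand): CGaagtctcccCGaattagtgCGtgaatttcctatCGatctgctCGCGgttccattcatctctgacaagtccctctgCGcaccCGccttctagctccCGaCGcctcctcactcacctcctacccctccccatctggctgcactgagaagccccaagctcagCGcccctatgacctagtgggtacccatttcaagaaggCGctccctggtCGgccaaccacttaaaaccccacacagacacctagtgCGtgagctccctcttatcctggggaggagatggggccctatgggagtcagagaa
Hoxc4 (GRCm38.p6, chr15:103034145-103034444, plus strand): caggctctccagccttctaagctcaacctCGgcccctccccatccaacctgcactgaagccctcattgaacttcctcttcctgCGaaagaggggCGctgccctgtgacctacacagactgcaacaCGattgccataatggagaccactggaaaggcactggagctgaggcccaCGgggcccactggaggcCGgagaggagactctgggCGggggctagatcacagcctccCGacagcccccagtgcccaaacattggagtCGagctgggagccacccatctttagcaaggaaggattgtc
Hoxd4 (GRCm38.p6, chr2:74721728-74722027, plus strand): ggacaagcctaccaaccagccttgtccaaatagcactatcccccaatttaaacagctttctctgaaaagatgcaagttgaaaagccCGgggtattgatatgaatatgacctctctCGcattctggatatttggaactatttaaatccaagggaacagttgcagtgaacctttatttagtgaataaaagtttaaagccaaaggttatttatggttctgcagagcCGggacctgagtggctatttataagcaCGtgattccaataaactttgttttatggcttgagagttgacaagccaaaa
These 5 promoters held 29, 45, 14, 9 and 4 CpGs in the order given. Counterparts differed in some sets and were close in others, as with Hoxa13 at 45 and Hoxd13 at 37. RefSeq promoters were found for 22 of the 38 genes, 24 promoters in all, and 20 of the 24 belonged to HoxA or HoxD. They held a median of 14.5 CpGs (range 4 to 45) in 300 bases, against a median of 7 over 32851 mouse promoters. CpG was searched as CG, which reads the same on both strands. At least 10 CpGs were found in 17 of the 24 (70.8%), against 43.5% of all promoters. HoxB had 3 promoters and HoxC had 1, so the clusters were not compared.

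In ESCs, Mel18 occupied all 4 clusters. ESC Mel18 had 26 peaks in HoxA, 23 in HoxB, 25 in HoxC and 24 in HoxD, which covered 71.0, 45.2, 58.5 and 64.5% of the windows. The HoxB window was the least covered. That window holds a stretch of 40594 bp (chr11:96070095-96110688) with no peak of any list, on its posterior side. Peaks were of like size in the 4 windows, with median widths of 1654.5, 1999, 2179 and 1953.5 bp against 1103 bp in the whole ESC Mel18 list. The score, the authors' own value of unstated scale, piled up at 3100 in this list and was used only for rank within a list. Scores of 3100 or more were held by 20 of the 98 Hox peaks, against 303 of 6593 in the whole list. Of the 20, 6 lay in HoxA, 4 in HoxB, 5 in HoxC and 5 in HoxD. The median Hox peak stood at percentile 73.6 of the list's scores in HoxA, 73.6 in HoxB, 81.4 in HoxC and 74.0 in HoxD. By this rank HoxC was not below the other clusters in ESCs.

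In MES, the clusters fell into 3 patterns. HoxA and HoxD were under broad peaks of Mel18, Cbx2 and Ring1b together. The main body of HoxB was under Cbx2 and RYBP peaks, with few Mel18 and Ring1b peaks. In the inner part of HoxC, RYBP was the only subunit with peaks. RYBP was present in all 4 windows, in short peaks.

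**Figure D1:**
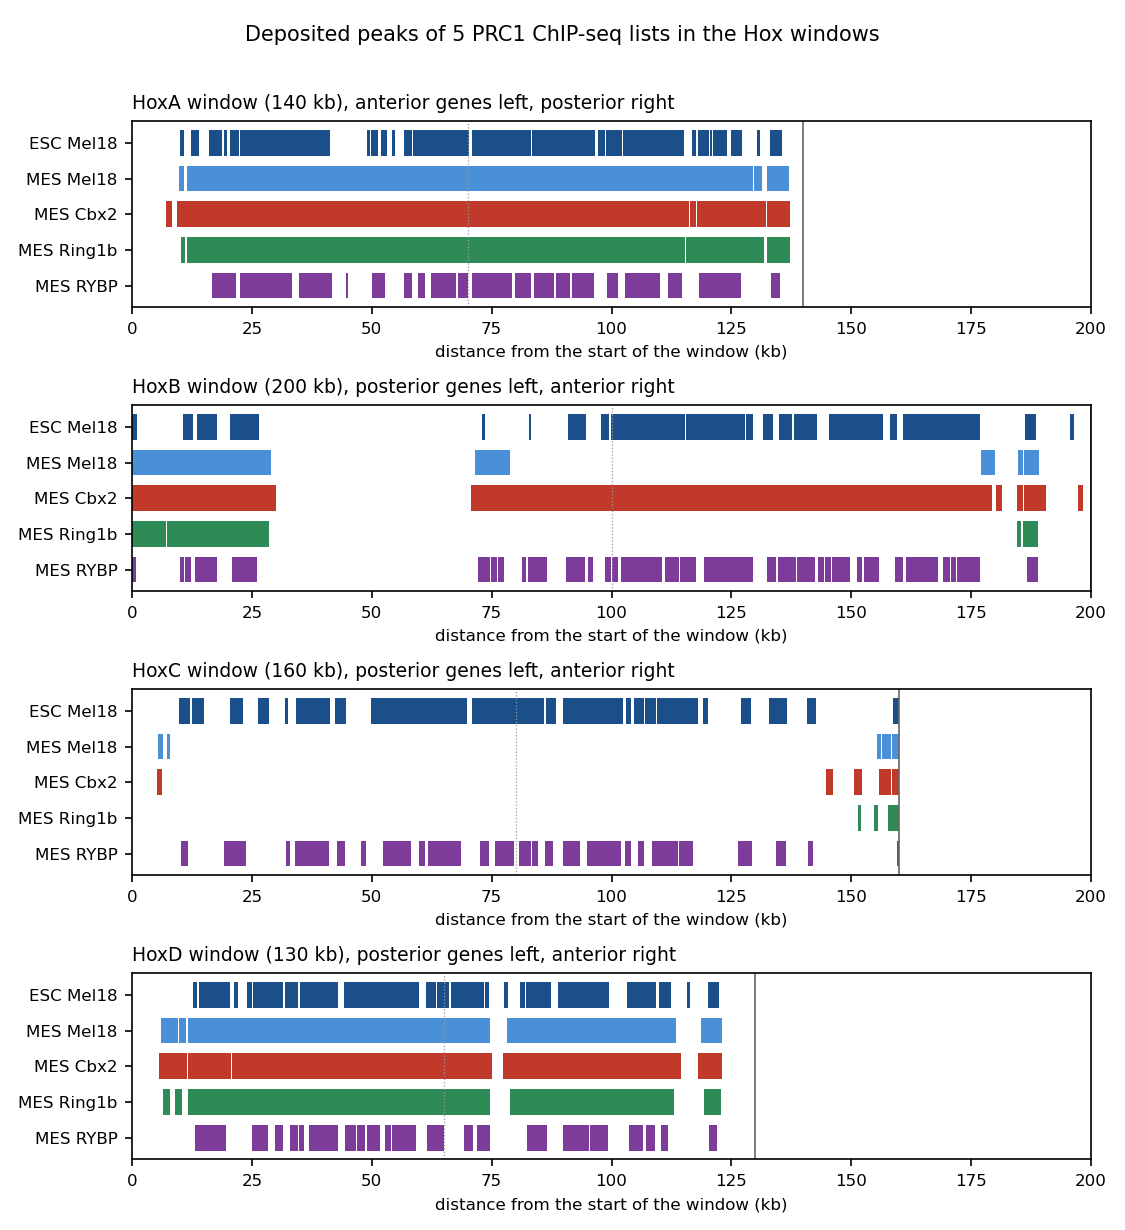
Each bar is 1 deposited peak, drawn by its distance in kb from the low-coordinate end of the window and clipped to the window; rows are the 5 lists, the dotted line is the window's midpoint and the solid line its end. HoxA and HoxD are filled by MES Mel18, Cbx2 and Ring1b, the inner part of HoxB only by Cbx2 among these, and the inner part of HoxC by none of them, while RYBP peaks run through all 4.

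HoxA was the most completely occupied window in MES. MES Mel18 covered 89.8% of its 140 kb with 4 peaks, Cbx2 covered 91.8% with 5 and Ring1b covered 89.6% with 6. One MES Mel18 peak of 118119 bp (chr6:52101429-52219547) held nearly all of the cover and was the widest peak of its list. Cbx2 had its second-widest peak there (chr6:52099302-52206068, 106767 bp). Ring1b had its widest (chr6:52133651-52205408, 71758 bp) beside another of 32141 bp (chr6:52101452-52133592). At the posterior end, the 3 subunits shared a separate peak at the same place, which Mel18 had at chr6:52222410-52227069, Cbx2 at chr6:52222421-52227300 and Ring1b at chr6:52222513-52227122. All 26 ESC Mel18 peaks of HoxA overlapped a MES Mel18 peak by at least 1 bp, where 52.6% of the whole ESC list did. All 26 also overlapped Cbx2 (50.8% of the list) and Ring1b (64.9% of the list), and 19 overlapped RYBP (61.6% of the list). In length, 100, 99.96 and 99.7% of these peaks lay under MES Mel18, Cbx2 and Ring1b. Over 73 other stretches of 5 or more ESC Mel18 peaks joined within 10 kb, the medians were 99.8, 100 and 98.7%. Near-full overlap with these 3 lists was thus not particular to HoxA.

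HoxD showed the same 3 subunits in a few long blocks with shared breaks. MES Mel18 covered 82.7% of its 130 kb with 6 peaks, Cbx2 covered 85.3% with 8 and Ring1b covered 79.6% with 7. The posterior block, on the side of Hoxd13, which shapes the digits, was a peak of 63001 bp for MES Mel18 (chr2:74491686-74554686) and of 62981 bp for Ring1b (chr2:74491709-74554689). Cbx2 had 2 peaks there (chr2:74491641-74500586 and chr2:74500902-74555032). The MES Mel18 and Ring1b blocks thus began and ended at nearly the same bases. None of these 3 subunits had a peak in the 2298 bp from chr2:74555033-74557330 or in the 3551 bp from chr2:74594519-74598069, and those gaps divided the window into a posterior, a middle and an anterior block. The anterior block, at the Hoxd1 end, was short: chr2:74598720-74603076 for MES Mel18 and chr2:74598070-74603001 for Cbx2. Of the 24 ESC Mel18 peaks of HoxD, 23 overlapped MES Mel18, 23 overlapped Cbx2, 22 overlapped Ring1b and 18 overlapped RYBP. In the whole ESC list these shares were 52.6, 50.8, 64.9 and 61.6%. In length, 98.4, 99.2 and 98.2% of the ESC Mel18 peaks of HoxD lay under MES Mel18, Cbx2 and Ring1b. The medians of the 73 other stretches were 99.8, 100 and 98.7%, so this was not particular to HoxD either. Outside the posterior end of the ESC Mel18 peaks, MES Mel18 (chr2:74485931-74489634 and chr2:74489854-74491140), Cbx2 (chr2:74485544-74489509 and chr2:74489627-74491368) and Ring1b had further peaks, so the MES stretch began earlier than that of the ESCs.

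HoxB was divided into an outer posterior block with all subunits and a main body with Ring1b peaks only at its anterior end. At the posterior edge, MES Mel18 (chr11:96029915-96045780 and chr11:96045886-96069067), Cbx2 (chr11:96029548-96070094) and Ring1b (chr11:96030901-96044779, chr11:96044786-96047108 and chr11:96047227-96068483) ran side by side up to the stretch with no peak of any list. Beyond that stretch Cbx2 had 1 peak of 108611 bp (chr11:96110689-96219299), the widest of the Cbx2 list. Ring1b had no peak over any base of it. MES Mel18 covered 8.94% of it, by a peak at its start (chr11:96111446-96118835, score 3100) and the first part of another at its end (chr11:96216975-96219988, score 406). Between those the MES Mel18 list was empty for 98139 bp, a stretch of which Cbx2 covered 100%, ESC Mel18 74.7% and RYBP 74.1%. The Ring1b list was empty for 156131 bp (chr11:96068484-96224614). At the anterior end, toward Hoxb1, a hindbrain patterning gene, a short site had peaks of all 5 lists: chr11:96226142-96228538 in ESC Mel18, chr11:96225938-96229063 in MES Mel18, chr11:96226111-96230597 in Cbx2, chr11:96225790-96228993 in Ring1b and chr11:96226702-96228862 in RYBP.

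Counted over the whole HoxB window, Cbx2 covered 73.3%, RYBP 46.4%, MES Mel18 21.8% and Ring1b 16.2%. Of its 23 ESC Mel18 peaks, 22 overlapped Cbx2 and 22 overlapped RYBP, whereas 7 overlapped MES Mel18 and 6 overlapped Ring1b. The combination of ESC Mel18, Cbx2 and RYBP without MES Mel18 or Ring1b lay on 31.0% of HoxB, more than any other state of its bases. The same combination lay on no base of HoxA, HoxC or HoxD.

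To see how often a long Cbx2 peak lacked Mel18, all 208 Cbx2 peaks of 10 kb or more were taken. MES Mel18 covered a median of 96.0% and Ring1b 88.6% of their length. MES Mel18 covered under 50% of 2 of the 208 (0.962%), the HoxB peak and one of 11986 bp on chromosome 10 (chr10:80391601-80403586, 42.8% under MES Mel18). The HoxB peak had the lowest cover by MES Mel18 and by Ring1b of the 208. The other Cbx2 peaks of that size in the clusters lay between 92.7 and 99.8% under MES Mel18, among them the posterior block of HoxB at 96.3%.

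HoxC had almost no MES peaks of Mel18, Cbx2 or Ring1b inside the cluster. Their peaks covered 3.65%, 4.94% and 2.32% of its 160 kb. In the 136890 bp of chr15:102737942-102874831 none of the 3 lists had a peak, while ESC Mel18 covered 67.4% and RYBP 51.1% of that stretch. At the posterior edge, on the side of Hoxc13, a gene of hair and nail development, the list of MES Mel18 had a peak pair (chr15:102735291-102736423 and chr15:102737222-102737941) and Cbx2 a single peak (chr15:102735287-102736135). Their scores were 116, 94.7 and 69.8. At the anterior edge, MES Mel18 (chr15:102888599-102893517), Cbx2 (chr15:102888530-102894015), Ring1b (chr15:102888520-102893611), ESC Mel18 (chr15:102888700-102892473) and RYBP (chr15:102889470-102890626) shared a site. This was the only ESC Mel18 peak of HoxC that overlapped a MES Mel18, Cbx2 or Ring1b peak, 1 of 25 for each. In the whole ESC list the shares for these 3 were 52.6, 50.8 and 64.9%. The ESC Mel18 peak of the shared site overlapped the window only in part. Smaller peaks stood before it: MES Mel18 at chr15:102885409-102886186 and chr15:102886506-102888318, Cbx2 at chr15:102874832-102876160, chr15:102880570-102882320 and chr15:102885794-102888301, and Ring1b at chr15:102881385-102882018, chr15:102884808-102885673 and chr15:102887673-102888409.

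**Figure D2:**
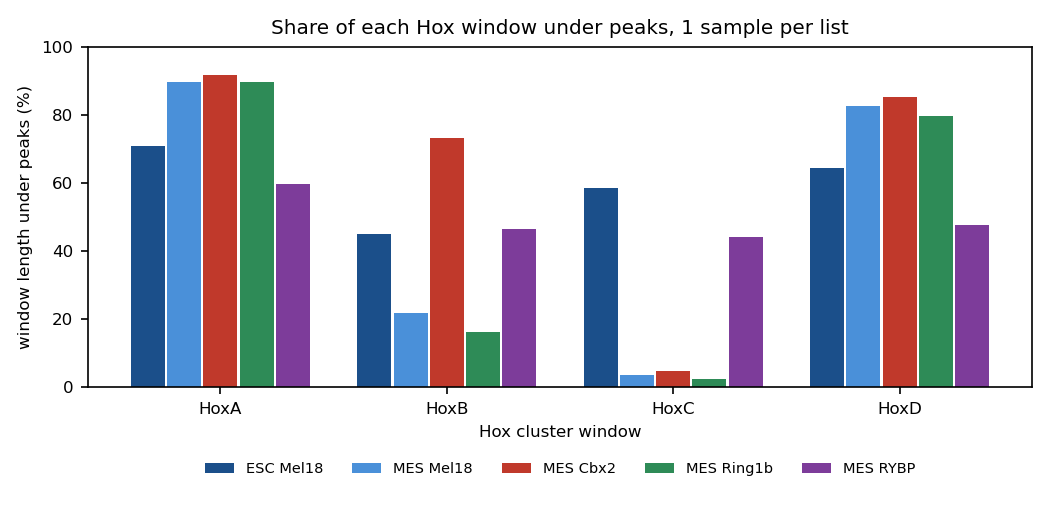
Bars give the percent of each Hox window's length that lay under peaks of a list, with 1 sample per list and so no error bar. MES Mel18 runs from 3.65% in HoxC to 89.8% in HoxA and Cbx2 from 4.94 to 91.8%, whereas ESC Mel18 stays between 45.2 and 71.0% and RYBP between 44.1 and 59.7%.

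The ESC Mel18 peaks with scores of 3100 or more show the division most plainly. All 11 of them in HoxA and HoxD overlapped MES Mel18, Cbx2 and Ring1b. In HoxB none of 4 overlapped MES Mel18 or Ring1b and all 4 overlapped Cbx2. In HoxC none of 5 overlapped any of the 3. All 20 overlapped RYBP. Over the whole list there were 303 such peaks, of which 95.4% overlapped MES Mel18, 95.4% Cbx2, 96.7% Ring1b and 98.7% RYBP. Of the 10 in the genome without Ring1b, 9 lay in HoxB and HoxC, and of the 14 without MES Mel18, again 9 did. The peaks of 1 cluster share a stretch, so these 9 are not 9 independent sites.

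Most RYBP peaks lay on ESC Mel18 peaks in every cluster. RYBP had 21 peaks in HoxA, 36 in HoxB, 26 in HoxC and 23 in HoxD, and covered 59.7, 46.4, 44.1 and 47.8% of the windows. Of the 106 RYBP peaks, 99 overlapped an ESC Mel18 peak (93.4%, exact Clopper-Pearson 95% interval 86.9 to 97.3, counting error only), where 50.8% of the whole RYBP list did. By cluster these were 20 of 21 in HoxA, 31 of 36 in HoxB, 25 of 26 in HoxC and 23 of 23 in HoxD. In length, 95.4% of the RYBP cover of HoxA, 81.7% of HoxB, 93.1% of HoxC and 98.1% of HoxD lay inside ESC Mel18 peaks, against 52.2% of the whole RYBP list. ESC Mel18 itself covered 45.2 to 71.0% of the windows. RYBP also lay between the ESC Mel18 peaks of the domains described below. It covered 14.6% of that ground in HoxA, 11.9% in HoxC and 4.49% in HoxD. In HoxB it covered 32.3% in the main body and 11.5% in the posterior block. The median of 73 domains outside the Hox windows was 4.83%.

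The same RYBP peaks differed between clusters in what MES subunits lay with them. Ring1b peaks overlapped all 21 RYBP peaks of HoxA and all 23 of HoxD, 9 of 36 in HoxB and 1 of 26 in HoxC, where 76% of the whole RYBP list overlapped Ring1b. Cbx2 peaks overlapped all RYBP peaks of HoxA, HoxB and HoxD and 1 of 26 in HoxC (45.7% of the list). MES Mel18 peaks overlapped all of HoxA and HoxD, 12 of 36 in HoxB and 1 of 26 in HoxC (45.9% of the list). RYBP peaks were shorter than the blocks of the other MES subunits, with a median of 3289 bp in HoxA, 1834 bp in HoxB, 1911.5 bp in HoxC and 2181 bp in HoxD, and the widest, in HoxB, had 10236 bp (chr11:96159198-96169433). The RYBP peaks with the highest score of each window lay at chr6:52192771-52200127 in HoxA (score 1692), chr11:96141936-96150459 in HoxB (1305), chr15:102791723-102798667 in HoxC (1292) and chr2:74516929-74523025 in HoxD (1498). By median score percentile in the RYBP list the windows stood at 92.0 in HoxA, 83.6 in HoxD, 63.0 in HoxC and 54.7 in HoxB. Joined over gaps of up to 10 kb, RYBP formed 67 domains of 5 or more peaks, and Ring1b covered under 5% of 2 of them (2.99%), the HoxC domain and the main HoxB domain.

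**Figure D3:**
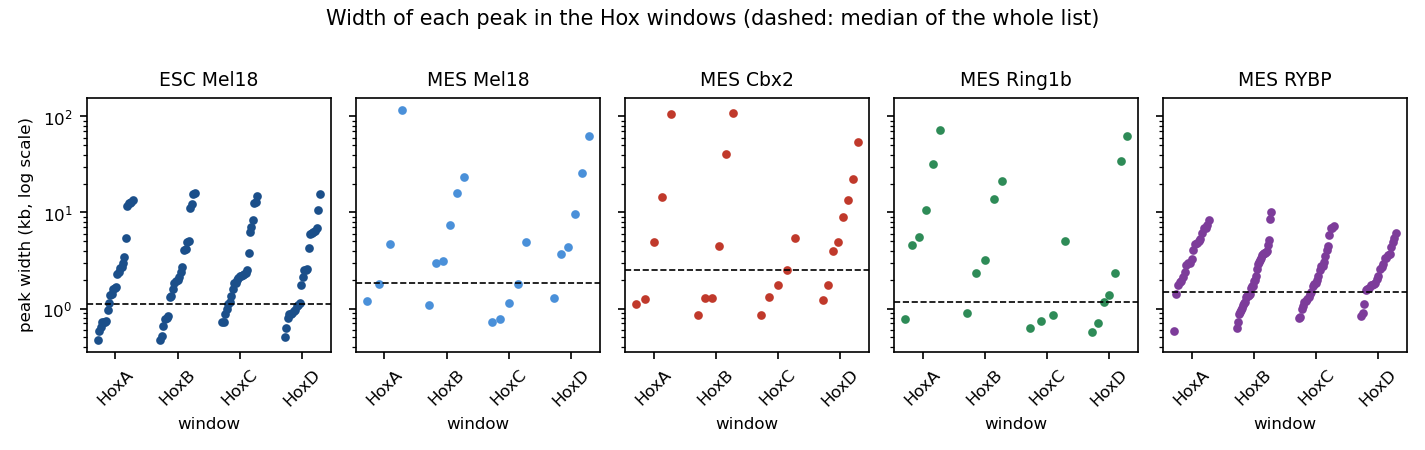
Each point is 1 peak of a Hox window, with its width in kb on a log axis, one panel per list and points sorted by width within a window; the dashed line is the median of the whole list. ESC Mel18 and RYBP peaks have much the same spread in the 4 windows, whereas MES Mel18, Cbx2 and Ring1b reach over 50 kb in HoxD and HoxA, Cbx2 reaches 109 kb in HoxB, and none of these 3 passes 5.49 kb in HoxC.

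In HoxA, HoxD and the posterior block of HoxB, the MES peaks also filled the ground between ESC Mel18 peaks. ESC Mel18 peaks within 10 kb were joined into domains, which gave a domain of 26 peaks in HoxA, one of 24 in HoxC, one of 24 in HoxD and, in HoxB, one of 7 at the posterior edge and one of 18 in the main body. In the HoxA domain 26.2 kb lay between ESC Mel18 peaks, and MES Mel18 covered 93.9%, Cbx2 98.0% and Ring1b 94.6% of it, but RYBP 14.6%. The longest ESC Mel18 gap there, of 7664 bp (chr6:52131301-52138964), was wholly under MES Mel18 and Cbx2. In HoxD 25.9 kb lay between ESC Mel18 peaks, with 71.1% under MES Mel18, 78.4% under Cbx2, 66.1% under Ring1b and 4.49% under RYBP. In the posterior HoxB block these shares were 99.3, 100, 99.1 and 11.5% of 14.0 kb. In the main body of HoxB, 46.4 kb lay between ESC Mel18 peaks, with 79.9% under Cbx2, 32.3% under RYBP, 21.7% under MES Mel18 and 3.67% under Ring1b. In HoxC 40.7 kb lay between them, of which RYBP covered 11.9% and the other MES subunits none. Over the 73 ESC Mel18 domains outside the Hox windows MES Mel18 covered a median of 80.0%, Cbx2 87.5%, Ring1b 65.2% and RYBP 4.83% of such ground. HoxA was thus above the middle of the other domains for each MES list. HoxD was slightly above it for Ring1b and below it for MES Mel18, Cbx2 and RYBP. HoxC and the main body of HoxB were well below it for MES Mel18 and Ring1b and above it for RYBP. For Cbx2, HoxC was well below it and the main body of HoxB somewhat below it.

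The 4 long Hox domains were also the longest of the 78 ESC Mel18 domains of 5 or more peaks. They measured 133 kb in HoxC, 126 kb in HoxA, 124 kb in HoxB and 110 kb in HoxD, and the longest outside the clusters measured 53.9 kb. Domains with no base under MES Mel18, Cbx2 or Ring1b numbered 2 of 78 (2.56%, exact interval 0.312 to 8.96%), HoxC and one of 17.1 kb on chromosome 18. The domain on chromosome 18 also had no RYBP, whereas RYBP covered 52.6% of the HoxC domain. Domains with over 50% under Cbx2 and under 50% under MES Mel18 numbered 4 of 78, of which HoxB had the lowest MES Mel18 cover. No list held a single peak as long as the HoxC domain, and the widest peak of any list was that of MES Mel18 in HoxA, at 118 kb. The peak names in each list were numbered without a gap from 1 to the last peak. Whether the caller left out enriched stretches as long as these domains was not tested, so the 0% cover of HoxC and the low cover of HoxB by MES Mel18 and Ring1b mean only that no peak was listed there.

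**Figure D4:**
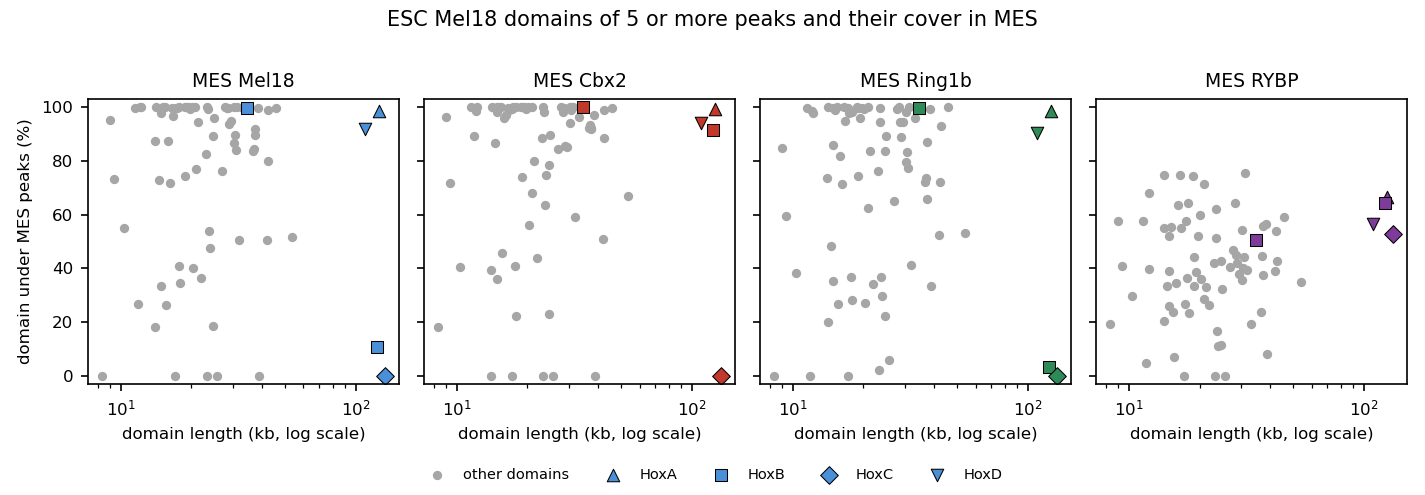
Each point is 1 of the 78 ESC Mel18 domains of 5 or more peaks, with its length in kb on a log axis and the percent of its length under peaks of 1 MES list; gray points are the 73 domains outside the Hox windows and HoxB has 2 domains. HoxC lies at 0% for MES Mel18, Cbx2 and Ring1b, the long HoxB domain at 10.6, 91.8 and 3.32%, and all Hox domains between 50.7 and 66.5% for RYBP.

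Anterior and posterior parts were compared by dividing each window at its midpoint. HoxA and HoxD had the higher cover on the posterior side in every list. In HoxA the posterior and anterior sides were covered at 79.2 and 62.9% by ESC Mel18, 94.3 and 85.4% by MES Mel18, 95.3 and 88.3% by Cbx2, 94.6 and 84.7% by Ring1b, and 66.8 and 52.6% by RYBP. In HoxD they were covered at 69.9 and 59.1% by ESC Mel18, 89.7 and 75.8% by MES Mel18, 90.4 and 80.1% by Cbx2, 86.1 and 73.1% by Ring1b, and 55.3 and 40.3% by RYBP. The exact binomial intervals of the sides, taken over kb of sequence, overlapped in each of these pairs. Trimmed by 10 kb at each end, the HoxA window was covered at 99.5% by MES Mel18, 99.7% by Cbx2 and 99.3% by Ring1b. For these lists the HoxA difference between sides thus lay almost wholly in the outer 10 kb at the window's ends. The sides of trimmed windows were not compared.

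HoxB ran the other way for part of the lists, and there the intervals of the sides did not overlap in any list. These intervals treat each kb as independent, although 1 long peak or gap can fill much of a side. Their overlap or lack of it is therefore no test of a difference, here or in the other windows. Its anterior side was the more covered by ESC Mel18 (70.5 against 19.8%), Cbx2 (87.2 against 59.4%) and RYBP (63.9 against 28.9%). Its posterior side was the more covered by MES Mel18 (36.4 against 7.23%) and Ring1b (28.4 against 4.10%). The stretch with no peak of any list lay on the posterior side. In HoxC ESC Mel18 covered 61.2% of the posterior and 55.8% of the anterior side, and RYBP covered 46.2 and 42.0%. MES Mel18, Cbx2 and Ring1b stood at 2.32, 1.06 and 0% on the posterior side and at 4.99, 8.82 and 4.65% on the anterior side. The few MES peaks of HoxC thus covered more of the anterior side, but the intervals overlapped for each subunit. Trimmed by 10 kb at each end, the HoxC window was covered at 0% by MES Mel18, 0.949% by Cbx2 and 0% by Ring1b. For MES Mel18 and Ring1b the HoxC difference thus lay wholly in the outer 10 kb at the window's ends, and for Cbx2 mostly there.

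**Figure D5:**
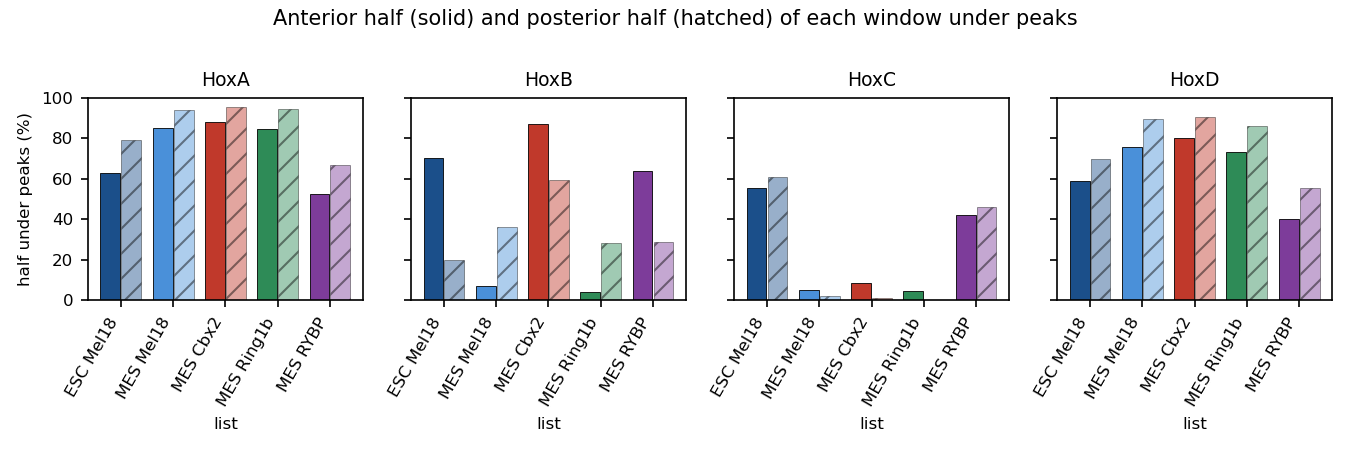
Paired bars give the percent of the anterior side (solid) and of the posterior side (hatched) of each window under peaks of the 5 lists. The posterior side is higher for all lists in HoxA and HoxD, while in HoxB the anterior side is higher for ESC Mel18, Cbx2 and RYBP and the posterior side for MES Mel18 and Ring1b. In HoxA the difference for MES Mel18, Cbx2 and Ring1b lies almost wholly at the ends of the window.

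Base by base, the 4 windows differed in how many lists they shared. All 5 lists lay on 56.9% of HoxA and 46.9% of HoxD, against 6.64% of HoxB and 0.332% of HoxC. The commonest state of HoxC was ESC Mel18 with RYBP alone, on 40.7% of the window, and ESC Mel18 alone lay on 17.0%. In HoxA and HoxD the next commonest states were the joint cover of MES Mel18, Cbx2 and Ring1b, without ESC Mel18 or RYBP, on 15.5 and 14.9%, and the same 3 with ESC Mel18 on 13.9 and 16.4%.

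Read from the MES lists, nearly all Ring1b peaks lay on MES Mel18 and Cbx2. Of the 22 Ring1b peaks in the clusters, 21 overlapped MES Mel18 (42.4% of the Ring1b list) and 21 overlapped Cbx2 (40.6%). The exceptions lay in HoxC. Of the same 22, 14 overlapped ESC Mel18 (43.4%) and 13 overlapped RYBP (64.7%). Of the 21 MES Mel18 peaks, 20 overlapped Cbx2 (73.3% of the MES Mel18 list), 17 Ring1b (81.2%), 13 ESC Mel18 (66.3%) and 11 RYBP (72.4%). Of the 24 Cbx2 peaks, 19 overlapped MES Mel18 (74.1% of the Cbx2 list), 17 Ring1b (78.9%), 14 ESC Mel18 (64.7%) and 12 RYBP (75%). Ring1b peaks thus stood above their list's share on MES Mel18 and Cbx2, and MES Mel18 peaks on Cbx2. For Ring1b peaks on ESC Mel18, the exact interval (40.7 to 82.8%) included the list's share. By count, Cbx2 peaks were below their list's share on RYBP (exact interval 29.1 to 70.9%). By length the order was reversed outside HoxC. RYBP peaks held 65.0, 63.3 and 56.1% of the Cbx2 cover of HoxA, HoxB and HoxD and 6.71% of that of HoxC. The share of the whole Cbx2 list was 52.2% by length. For MES Mel18 peaks on RYBP, the exact interval (29.8 to 74.3%) included the list's share. These intervals treat peaks as independent, which they are not. A single peak can span most of a cluster, so these counts weigh a short edge peak and a block of 118 kb alike.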

How the data were processed

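Peak lists of 5 ChIP-seq samples were used, 1 sample per list. Reads were placed on mm9, and Bowtie and TopHat were named without versions, per the submitters' processing notes. The deposited peak names carry the tag of the MACS caller; for the caller, its version, settings, control and any pooling, the sources used here give nothing. The score of each peak was the authors' own, with a scale the deposited files do not state, and was used only for rank within a list.

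Covered length was the number of bases of a window under peaks of a list. Overlap was at least 1 bp. ESC Mel18 or RYBP peaks within 10 kb were joined into domains. Starts count from 1. Intervals (95%) treat peaks, domains or kb of sequence as independent, which they are not. The tools were matplotlib 3.10.9, scipy 1.17.1, pandas 2.3.3, numpy 2.4.6 and Python 3.11.15. Cover and overlap were checked against bedtools 2.31.1 on 20 pairs each, with 0 bases and 0 peaks different, and cover was tested on simulated data in 50 windows, with 0 wrong lengths.

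The genes named are the 38 listed Hox genes. The peaks named are the widest or highest-scoring of a window, those beside a gap of 10 kb or more, and those of lists with 5 or fewer peaks there; others were named after their values were seen. Windows, genes, lists and measures were chosen with earlier results of these data known. Gene order and promoters came from RefSeq (GRCm38.p6); start sites were not placed on mm9, so their count under peaks was not made. Alternatives were stricter lists, other overlap rules, joined peaks, trimmed windows, another midpoint and other domain rules.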

Additional observations from a re-analysis of the deposited data

How the results depend on the processing

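No paired analysis was possible because the ChIP-seq groups held 1 sample each, and leaving out a replicate was not possible either. Depth was unknown and limits every absence of a peak. Start sites under peaks were not counted, since no mm9 annotation was used. Of 80 recomputed window covers, 66 stayed within the 95% binomial interval over kb. With windows trimmed by 10 kb at each end, HoxA was covered at 80.0% by ESC Mel18, 99.5% by MES Mel18, 99.7% by Cbx2 and 99.3% by Ring1b, HoxD at 74.1, 91.5, 94.1 and 89.4%, and HoxC at 0% by MES Mel18, 0.949% by Cbx2 and 0% by Ring1b. By construction, trimming removes edges. With lists reduced to their upper 50% by score, RYBP covered 38.3% of HoxB and 19.9% of its posterior side, MES Mel18 covered 0.876% of HoxC and 0% of its posterior side, and Cbx2 covered 0% of that side. With lists of equal length RYBP covered 37.6% of HoxB. Of 80 recomputed covers of a side, 77 stayed in their intervals.

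Peak overlaps held with 50% of the shorter peak (24 of 24 within their intervals) but not with peak centres within 1 kb (4 of 24), a rule that by construction a long peak can hardly meet. With centres within 1 kb, ESC Mel18 peaks of HoxA, HoxB and HoxD matched MES Mel18 at 11.5, 8.70 and 8.33%, Cbx2 at 7.69, 0 and 12.5%, Ring1b at 15.4, 8.70 and 8.33% and RYBP at 42.3, 52.2 and 45.8%. RYBP peaks of HoxA, HoxB, HoxC and HoxD matched ESC Mel18 at 47.6, 33.3, 57.7 and 43.5% and Ring1b at 9.52, 5.56, 0 and 4.35%. The contrast between clusters in MES Mel18 and Ring1b thus rests on overlap in bases. In the upper 50% by score, ESC Mel18 peaks of HoxD overlapped MES Mel18, Cbx2 and Ring1b at 100% each and RYBP at 92.9%, those of HoxB overlapped Cbx2 at 100%, RYBP peaks of HoxA and HoxC overlapped ESC Mel18 at 100% each, and those of HoxC overlapped Ring1b at 0%. With peaks within 1 kb joined, RYBP peaks of HoxB overlapped ESC Mel18 at 100%.

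ESC Mel18 domains without MES Mel18, Cbx2 or Ring1b cover numbered 2 of 78 as reported, 4 of 60 with peaks joined within 5 kb, 1 of 95 within 20 kb and 11 of 327 with 3 or more peaks. Joining within 5 kb splits the HoxC domain at gaps of 5274, 5099 and 6827 bp between ESC Mel18 peaks. HoxC thus enters the count of 4 more than once, and the 4 are not separate loci. Joining within 20 kb links the HoxC domain to the shared site at its anterior edge.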
